A study of Mus musculus with 6 samples.

Results

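The 10 genes described here encode surface antigens and galectins by which activated T cells are recognised: Cd44, Spn, Ly6a, Ly6c1, Ly6c2, Cd48, Slamf1, Cd24a, Lgals1 and Lgals3. They were chosen by name, and all 10 had a gene row among the 22095 Ensembl gene rows of the table. RNA was sequenced from naive CD8+ T cells that had been purified from spleens of wild-type C57BL/6 mice and cultured in RPMI medium with serum, 2-mercaptoethanol and recombinant mouse IL-2. All cells were activated for 48 h with antibodies to CD3 and CD28. The 3 DMSO libraries received solvent and the 3 ponatinib libraries 10 nM ponatinib, a kinase inhibitor made against BCR-ABL that also acts on SRC, FGFR, VEGFR and other kinases. Naive or unactivated cells were not analysed here, so the levels below compare activated cells with activated cells. Whether the libraries of a group came from different mice or cultures is not labelled, so the p-values reflect the spread among these libraries alone, which may be technical.

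Several of these antigens define T cell states by flow cytometry. CD44, a hyaluronan receptor, and the lipid-anchored proteins Ly6A (Sca-1) and Ly6C mark activated and memory CD8 T cells in this mouse strain, and CD43, the product of Spn, is a heavily glycosylated sialomucin whose sugars change on activation. CD48 and SLAMF1 belong to the CD2 and SLAM family of adhesion and signalling receptors. CD24 is a small mucin abundant on immature lymphocytes and B cells. Galectin-1 and galectin-3, encoded by Lgals1 and Lgals3, bind galactose-containing sugars on such glycoproteins from outside the cell and also act inside it.

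Levels were in TPM, a transcript's share of all transcripts scaled to a fixed total, which are corrected for transcript length, so levels of different genes can be compared. A gene was tested if its mean over the 6 libraries was at least 1 TPM, which kept 10039 gene rows. Of the members 9 passed and Ly6c1, at a mean of 0.689 TPM, did not. A change was called at an adjusted p under 0.05. The rule called 3356 of the 10039 genes, 33.4%, with 23.9% higher and 9.54% lower with ponatinib. The libraries separated by treatment on the first principal component (68.0% of the variance), and DMSO replicate 3 stood apart from the other DMSO libraries on the second (17.3%), at -19.6 against 9.38 and 13.0. In that library mitochondrially encoded genes held 4.78% of TPM, against 9.76% and 10.7% in the other DMSO libraries and 7.16% to 8.19% with ponatinib. Values without DMSO replicate 3 are therefore given beside those of each tested member.

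With ponatinib, Lgals3 rose 2.21-fold and Spn rose by 0.28 on the log2 scale, while Cd24a fell to 0.475 and Ly6c2 to 0.557 of their DMSO means. Cd44, the most used activation marker of the set, did not pass the test, nor did Cd48, Slamf1, Lgals1 or Ly6a. Thus 2 of 9 tested members were higher and 2 lower. Their median log2 fold change was 0.11 beside 0.09 for all tested genes. The median size of the change, without its sign, was 0.28 for the members and 0.19 for all genes. The DMSO and ponatinib libraries did not overlap in 6 of the 9, 3 higher and 3 lower, where 49.4% of all tested genes did not overlap (34.5% higher, 14.9% lower). Without DMSO replicate 3, 8 of 9 members were called, beside 45.4% of all genes. When the TPM of the libraries were rescaled by medians of ratios, 14.7% of all genes were called higher and 15.6% lower. Among the members 1 was then higher and 3 lower.

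**Figure D1:**
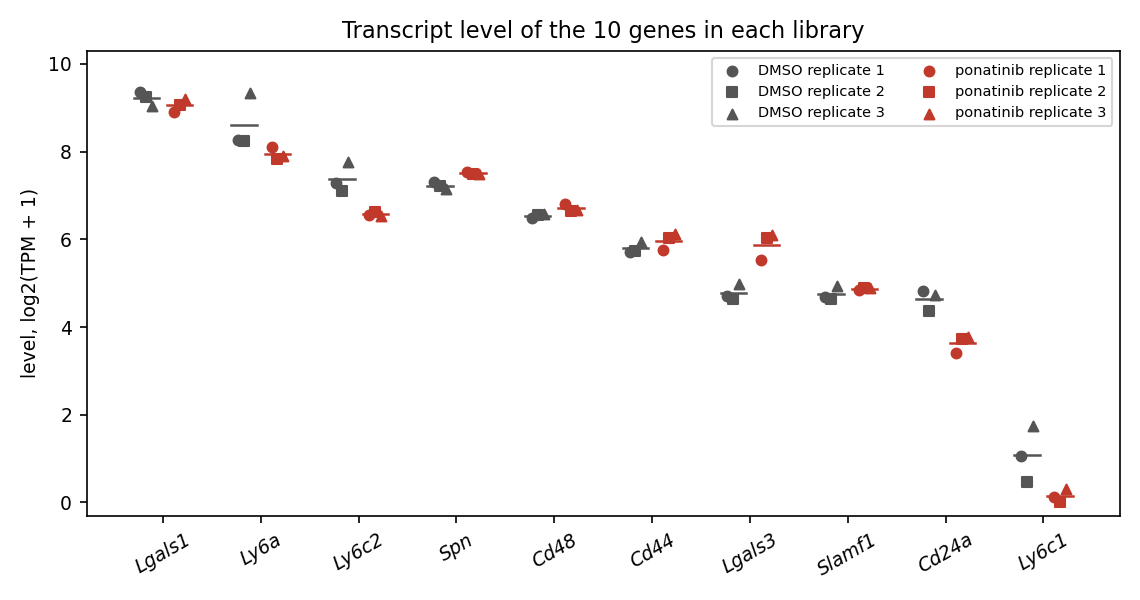
Level of each of the 10 genes as log2(TPM + 1) in the 6 libraries, ordered by DMSO mean; symbols mark replicate numbers and short lines the group means of the log2 values. Lgals1 is the most abundant and Ly6c1 the least, and DMSO replicate 3 lies above the other DMSO libraries for Ly6a and Ly6c2.

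**Figure D2:**
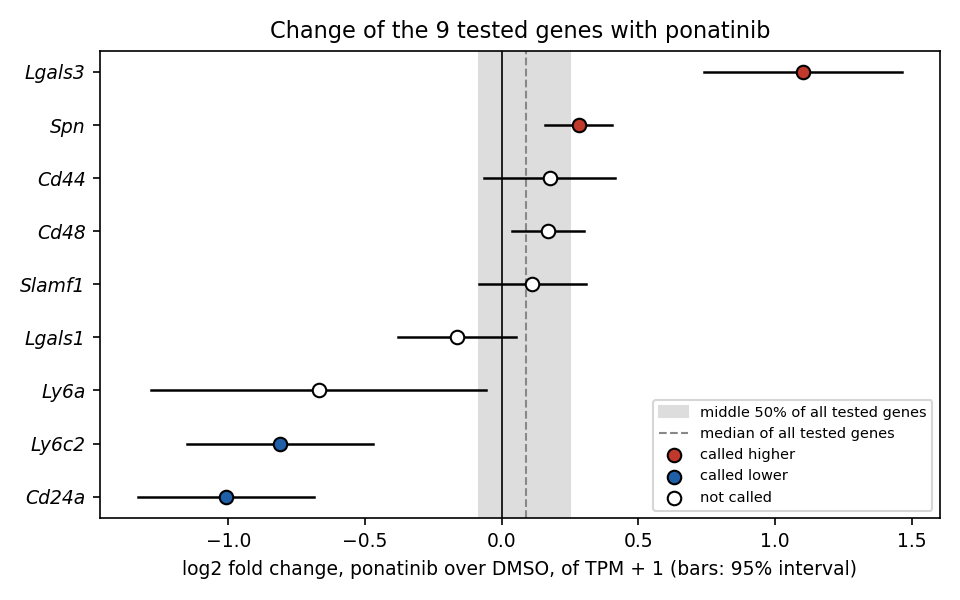
Log2 fold change of the 9 tested genes (ponatinib over DMSO, of TPM + 1) with its 95% interval, coloured by the call; the grey band is the middle 50% of all tested genes. Lgals3, at 1.10, and Cd24a, at -1.01, lie at the ends, and the intervals of Cd44, Slamf1 and Lgals1 include 0.

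The members spanned a wide range of abundance. With DMSO their means ran from Lgals1 at 596 TPM through Ly6a (419), Ly6c2 (169), Spn (149), Cd48 (92.1), Cd44 (54.7), Lgals3 (26.6), Slamf1 (26.1) and Cd24a (24.1) to Ly6c1 at 1.27 TPM. Single libraries overlapped between Lgals1 and Ly6a, between Ly6c2 and Spn, and among Lgals3, Slamf1 and Cd24a; the other neighbours in this order did not overlap. With ponatinib the order became Lgals1, Ly6a, Spn, Cd48, Ly6c2, Cd44, Lgals3, Slamf1, Cd24a and Ly6c1, and only Cd44 and Lgals3 overlapped as neighbours. Ly6c2 thus stood above Spn and Cd48 in mean level with DMSO and below both with ponatinib. Its place above Spn rested on DMSO replicate 3. In DMSO replicates 1 and 2 Ly6c2 (154 and 137 TPM) lay below Spn (157 and 148 TPM). Without DMSO replicate 3 the means of Ly6c2 and Spn were 146 and 152 TPM. Cd24a went from a level above that of 60.2% of tested genes to one above 38.7%.

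Cd44 was measured at 51.4, 52.0 and 60.8 TPM with DMSO and at 53.5, 64.5 and 68.4 TPM with ponatinib. The groups overlapped, since ponatinib replicate 1 lay below DMSO replicate 3. The means were 54.7 ± 5.25 and 62.1 ± 7.73 TPM (SD, n = 3 per group), and the log2 fold change was 0.18 with a 95% interval from -0.06 to 0.42 (adjusted p = 0.226). It was 0.25 without DMSO replicate 3 (adjusted p = 0.0631), 0.28 without ponatinib replicate 1 (adjusted p = 0.0647) and 0.10 without ponatinib replicate 3 (adjusted p = 0.538). With medians of ratios it was 0.081 (adjusted p = 0.497), so no setting called Cd44. In the annotation Cd44 (ENSMUSG00000005087, GRCm38 chr2:102811141-102901665, minus strand) is overlapped only by Gm23731 on the opposite strand, which was at 0 or had no row. All signal of Cd44 was in 1 gene row, so the table does not show which of the CD44 splice forms were present.

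Spn rose with ponatinib. Its levels were 157, 148 and 141 TPM with DMSO and 184, 179.9 and 177 TPM with ponatinib, and the groups did not overlap. The log2 fold change was 0.28 (SE 0.05, adjusted p = 0.00611), 0.19 above the median of all genes. The call held with each library left out (highest adjusted p = 0.0294; 0.24 without DMSO replicate 3) but not with medians of ratios (0.19, adjusted p = 0.0924). Besides the gene row, the table had a row for a nonsense-mediated decay transcript and a row for a coding transcript of Spn; they held 2.84% and 2.53% of the level of the gene row. The gene is ENSMUSG00000051457, chr7:127132232-127137823, minus strand.

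The proteins through which CD43 and CD44 are tied to the actin cortex, and the enzymes that build the CD43 sugars, were looked at as lists. Of 17 genes for hyaluronan, ERM linkers and other partners, 9 were tested, 4 rose and 0 fell, with a median of 0.18. With medians of ratios 3 rose and 1 fell. Among all tested genes 23.9% were called higher and 9.54% lower, and with medians of ratios 14.7% and 15.6%. Msn, which encodes moesin, the abundant ERM linker of T cells, rose from 275 ± 6.16 to 341 ± 10.9 TPM (log2 fold change 0.31, adjusted p = 0.00224). Its paralogue Rdx rose by 0.16, a call lost in 9 of the alternatives run, for example with medians of ratios (0.07, adjusted p = 0.293). The third ERM gene, Ezr, gave 212 against 203 TPM with DMSO and ponatinib and was not called; it was looked at after its values were seen. Cd74, the class II invariant chain and a partner of CD44 as a cytokine receptor, rose from 85.0 ± 2.57 to 123 ± 7.11 TPM, and Cd52, which encodes a short lipid-anchored antigen, from 963 ± 145 to 1487 ± 107 TPM. Cd74 and Cd52 are also abundant in B cells, whose marker levels are given further on.

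Of 32 glycosyltransferase and related genes, 29 were tested, 9 rose and 3 fell, with a median of 0.12. These counts stand beside 23.9% called higher and 9.54% called lower among all tested genes. With medians of ratios 6 rose and 4 fell. St3gal1, which puts sialic acid on the core sugar of CD43 in naive CD8 T cells, rose from 9.32 ± 0.189 to 19.8 ± 2.93 TPM (adjusted p = 6.89e-04). Mgat5, whose branched N-glycans are strong galectin ligands, rose from 3.61 ± 0.496 to 7.83 ± 0.574 TPM, and Galnt10, which starts mucin-type sugars, from 6.45 ± 0.571 to 13.9 ± 0.886 TPM. Fut4, a fucosyltransferase, fell from 2.27 ± 0.736 to 0.566 ± 0.241 TPM. With a ponatinib mean under 1 TPM, Fut4 was tested only through its DMSO libraries. Gcnt1, the enzyme that makes the activation-linked form of CD43, was under the minimum, at 0.219, 0.357 and 0.628 TPM with DMSO and 0.297, 0.238 and 0.354 TPM with ponatinib; it was named after its values were seen.

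Ly6a was measured at 308, 303 and 646 TPM with DMSO and at 274, 227 and 239 TPM with ponatinib. All ponatinib libraries lay below all DMSO libraries, but DMSO replicate 3 was 2.11 times the mean of the other DMSO libraries, a ratio higher than that of 98.4% of tested genes. The means were 419 ± 197 and 247 ± 24.5 TPM, and the log2 fold change of -0.67 did not pass the test (95% interval -1.28 to -0.06, adjusted p = 0.0878). Without DMSO replicate 3 the difference was smaller, -0.31, and was called (adjusted p = 0.0121). With medians of ratios and all 6 libraries it was -0.77 and also called (adjusted p = 0.0472). The gene is ENSMUSG00000075602, chr15:74994877-74998031, minus strand.

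Ly6c2, which encodes the main Ly6C antigen of T cells and monocytes, fell. It stood at 154, 137 and 216 TPM with DMSO and at 93.7, 97.2 and 91.9 TPM with ponatinib, and the groups did not overlap. The log2 fold change was -0.81 (SE 0.15, adjusted p = 0.00549), lower than that of all but 2.37% of tested genes. DMSO replicate 3 again had the highest level, and without it the log2 fold change was -0.62 (adjusted p = 2.54e-04). The call held with each library left out. The gene is ENSMUSG00000022584, chr15:75108158-75111970, minus strand. In bulk RNA, fewer cells with a transcript and less of it per cell cannot be told apart.

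Ly6c1 (ENSMUSG00000079018, chr15:75044018-75048830, minus strand), its near-identical neighbour, was close to absent: 1.08, 0.390 and 2.33 TPM with DMSO, and 0.0947, 0 and 0.246 TPM with ponatinib. The ponatinib libraries were all below the DMSO libraries, at levels where the number of reads behind a value is unknown, so no fold of mean TPM is given. Ly6c2 made up 98.9% to 100% of the sum of the Ly6c1 and Ly6c2 gene rows in each library. In addition, 2 transcript rows of Ly6c1 reached at most 2.03 TPM. When they were added to the gene row, Ly6c1 passed the minimum but was not called (adjusted p = 0.101).

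How far the reads can tell these genes apart depends on their sequence. The coding sequences of Ly6c1 and Ly6c2 in the annotation are 396 bases each and differ at 9 of them, an identity of 97.7%. The stretch with the most differences, bases 6 to 65 counted from the A of the start codon, is shown because it carries 6 of the 9. Both sequences read 5′ to 3′ on the minus strand of chromosome 15, and capitals mark the bases that differ.
Ly6c1: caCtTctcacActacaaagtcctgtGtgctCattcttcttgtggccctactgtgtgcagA
Ly6c2: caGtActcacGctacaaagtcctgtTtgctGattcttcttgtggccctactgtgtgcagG

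Of the stretches of 31 bases in the annotated transcripts of Ly6c1, 46.8% also occurred in transcripts of other genes, 33.1% in Ly6c2. For Ly6c2 the share was 23.8%, 21.4% in Ly6c1, and for Ly6a 31.9%, 21.9% in Ly6c1. The split of reads among these 3 genes is thus uncertain, whereas no such stretch of Cd48, Lgals1 or Lgals3 occurred elsewhere, and the shares were 0.0574% for Cd44, 0.430% for Spn, 3.06% for Slamf1 and 4.98% for Cd24a.

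The promoters of the Ly6c pair are less alike than the coding parts and are shown because the paralogues differ widely in level. Over 282 aligned positions, 208 were identical (73.8%), with 58 mismatches and 16 gap positions. The sequences are from RefSeq on GRCm38.p6, minus strand, from 250 bases before to 50 bases after the annotated start, and capitals mark bases of the aligned part that differ or have no partner. The first lies at chr15:75048788-75049087 and the second at chr15:75111922-75112221.
Ly6c1: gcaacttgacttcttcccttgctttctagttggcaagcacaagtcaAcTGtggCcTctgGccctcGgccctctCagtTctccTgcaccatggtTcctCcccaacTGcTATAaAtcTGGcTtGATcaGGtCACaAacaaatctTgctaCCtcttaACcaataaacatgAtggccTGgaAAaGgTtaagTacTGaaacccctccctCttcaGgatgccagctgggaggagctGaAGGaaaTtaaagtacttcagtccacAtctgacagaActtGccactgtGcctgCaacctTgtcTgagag
Ly6c2: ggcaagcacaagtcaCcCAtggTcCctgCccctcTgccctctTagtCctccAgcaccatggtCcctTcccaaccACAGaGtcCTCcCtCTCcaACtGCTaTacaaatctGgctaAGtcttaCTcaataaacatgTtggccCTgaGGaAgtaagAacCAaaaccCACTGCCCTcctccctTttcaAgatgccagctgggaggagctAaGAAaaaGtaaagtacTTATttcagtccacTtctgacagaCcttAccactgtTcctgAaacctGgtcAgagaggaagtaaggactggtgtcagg

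On either strand, the TATA box TATAAA and the CCAAT box CCAAT each occurred in the Ly6c1 window and not in the Ly6c2 window; 13.6% and 37.4% of all 32851 RefSeq promoters of this length hold them. The interferon-gamma motif GAS, TTCNNNGAA, is in 8.30% of all promoters and in none of the 9 entries found for 7 of the members. Matching letters do not show a bound site, and missing ones say nothing on the factors that act on these genes.

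Ly6a, Ly6c1 and Ly6c2 lie in the Ly6 cluster of chromosome 15, where 11 protein-coding genes fall between Ly6e and Gpihbp1 (74955051 to 75599481). Only Ly6e, Ly6a and Ly6c2 of these were above the minimum. Ly6e, at the start of this stretch and known as an interferon-induced antigen, rose from 124, 130.1 and 136 to 220.0, 186 and 178 TPM (log2 fold change 0.57, adjusted p = 0.00222). Across the wider Ly6 and uPAR family, 7 of 31 listed genes were tested beside the members, 4 rose and 0 fell, also with medians of ratios. The shares of all tested genes were 23.9% called higher and 9.54% lower. Apart from Ly6e the genes of this family that rose were low: Ly6g5b rose from 0.274 ± 0.0555 to 2.39 ± 0.221 TPM, Lypd6b from 1.17 ± 0.156 to 3.13 ± 0.366 TPM, and Ly6d from 0.859 ± 0.942 to 2.75 ± 0.728 TPM. The groups overlapped for Ly6d, an antigen of early B cells, and its call was lost in 5 of the alternatives. Ly6g5b and Ly6d had DMSO means under 1 TPM and passed the minimum only through their ponatinib libraries. Family genes at such DMSO levels that did not rise were left untested, so the filter favours rises in this count.

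Cd48, a lipid-anchored ligand of CD2 and CD244, was measured at 88.6, 92.9 and 94.8 TPM with DMSO and at 110.5, 99.96 and 101 TPM with ponatinib. The groups did not overlap, yet the log2 fold change of 0.17 (95% interval 0.04 to 0.30) missed the threshold (adjusted p = 0.0536). It was called without DMSO replicate 3 (0.19, adjusted p = 0.0298) and when genes under 10 TPM were left out (adjusted p = 0.0480), and not with medians of ratios (0.07, adjusted p = 0.394). Slamf1, a self-binding receptor of activated T cells, stood at 24.8, 24.1 and 29.6 TPM with DMSO and at 27.6, 28.7 and 28.4 TPM with ponatinib. The groups overlapped through DMSO replicate 3 (log2 fold change 0.11, 95% interval -0.08 to 0.31, adjusted p = 0.336), and without it the difference was 0.20 and called (adjusted p = 0.0204). With medians of ratios it was 0.019 (adjusted p = 0.831) and with quantile normalization 0.024 (adjusted p = 0.784).

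Both genes are on the plus strand in the Slam cluster of chromosome 1, Cd48 (ENSMUSG00000015355) at chr1:171682009-171705258 and Slamf1 (ENSMUSG00000015316) at chr1:171767127-171801184. Their relatives moved in both directions. Of 11 further CD2 and SLAM family genes and adaptors 6 were tested, 2 rose and 1 fell, with a median of -0.15. Beside them, 23.9% of all tested genes were called higher and 9.54% lower. With medians of ratios 2 of the list rose and 3 fell. Cd2, whose protein binds CD48 on other cells, fell from 379, 364 and 515 to 234, 245 and 242 TPM (log2 fold change -0.78, SE 0.12, adjusted p = 0.00272). Cd84 rose from 18.9, 20.7 and 20.2 to 31.7, 30.1 and 28.1 TPM (0.56, adjusted p = 0.00135). Slamf6, which encodes the receptor Ly108 known from stem-like T cells, rose from 29.8, 23.7 and 15.0 to 40.1, 39.4 and 39.8 TPM (0.82, adjusted p = 0.0184), and its call was lost without any 1 of the ponatinib libraries (adjusted p of 0.0545 to 0.0631) and with quantile normalization (0.0505). Sh2d1a, the adaptor SAP of this family, was at 57.4 ± 11.4 and 40.9 ± 6.81 TPM and was not called (-0.47, adjusted p = 0.0554), although 6 alternatives called it, medians of ratios among them (-0.57, adjusted p = 0.0193). Cd244a, the other receptor for CD48, reached at most 0.0960 TPM in any library; it was named after its values were seen.

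Cd24a fell. Its levels were 27.1, 19.7 and 25.5 TPM with DMSO and 9.63, 12.2 and 12.6 TPM with ponatinib. The groups were well apart, with the lowest DMSO library above the highest ponatinib library. The log2 fold change was -1.01 (SE 0.14, adjusted p = 0.00182), and only 1.60% of tested genes had a lower one. DMSO replicate 3 was not extreme here, and without it the difference was -0.96 (adjusted p = 0.00173). The gene is ENSMUSG00000047139, chr10:43578284-43584265, plus strand. CD24 is abundant on B cells. Of 12 B cell markers, of which 4 reached a mean of 1 TPM, 4 were higher in all ponatinib than in all DMSO libraries and 0 lower. Among all tested genes 34.5% were so higher and 14.9% lower. Cd79a was at 0.336, 0.192 and 2.03 TPM with DMSO and at 2.45, 2.73 and 2.57 TPM with ponatinib. Cd79b was at 6.69, 8.16 and 9.48 TPM with DMSO and at 14.0, 13.7 and 12.4 TPM with ponatinib. The list summed to 140 to 168 TPM with DMSO and 156 to 177 TPM with ponatinib, of which Ighm gave 124 to 159 and 135 to 156 TPM. Erythroid cells carry CD24 too; the 10 erythroid and platelet markers summed to 0.910 to 1.99 TPM with DMSO and 4.25 to 8.47 TPM with ponatinib, with Gp9 at 0 in all libraries. The part of such cells in the fall of Cd24a was not tested.

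Lgals1 was the most abundant member. It stood at 651, 609 and 529 TPM with DMSO and at 479.9, 531 and 584 TPM with ponatinib, so the groups overlapped. The log2 fold change was -0.16 (95% interval -0.38 to 0.05, adjusted p = 0.210). Here DMSO replicate 3 was the lowest DMSO library; without it the difference was -0.25 and called (adjusted p = 0.0329). The gene is ENSMUSG00000068220, chr15:78926725-78930465, plus strand, outside the Ly6 cluster.

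Lgals3 rose the most of all members. Its levels were 25.1, 24.1 and 30.6 TPM with DMSO and 44.9, 64.4 and 67.1 TPM with ponatinib. The groups did not overlap, and ponatinib replicate 1 was the lowest of its group. The log2 fold change was 1.10 (SE 0.16, adjusted p = 0.00205), above that of 99.1% of tested genes, and the call held under every setting tried, with an adjusted p of 8.04e-04 without DMSO replicate 3 and values from 0.997 to 1.28 with 1 library left out (highest adjusted p = 0.0118). The gene is ENSMUSG00000050335, chr14:47367751-47386160, plus strand. The ratio of Lgals1 to Lgals3 was 25.9, 25.3 and 17.3 with DMSO and 10.7, 8.24 and 8.70 with ponatinib (exact two-sided permutation p = 0.1, the smallest that 3 against 3 libraries can give; 0.4 adjusted over 4 ratios of members).

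Galectin-3 is abundant in macrophages. The 12 myeloid markers summed to 3.51 to 6.66 TPM with DMSO and 6.00 to 9.21 TPM with ponatinib. Of these, 2 reached a mean of 1 TPM, Cd68 and Mpeg1. Set against all DMSO libraries, 6 markers were higher in all ponatinib libraries and 1, Mpeg1, was lower. Among all tested genes 34.5% were so higher and 14.9% lower. Mpeg1 went from 1.91, 1.66 and 4.29 TPM with DMSO to 1.15, 0.965 and 1.03 TPM with ponatinib. Cd68 went from 1.47, 1.51 and 1.92 TPM to 2.43, 2.515 and 2.59 TPM. Lyz2 was at 0.0422 to 0.260 TPM with DMSO and 1.13 to 2.81 TPM with ponatinib, Csf1r at most at 0.168 TPM and Adgre1 at most at 0.0577 TPM in any library, and S100a8, S100a9 and Clec7a were at 0 in all DMSO libraries. The part of such cells in the rise of Lgals3 was not tested.

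**Figure D3:**
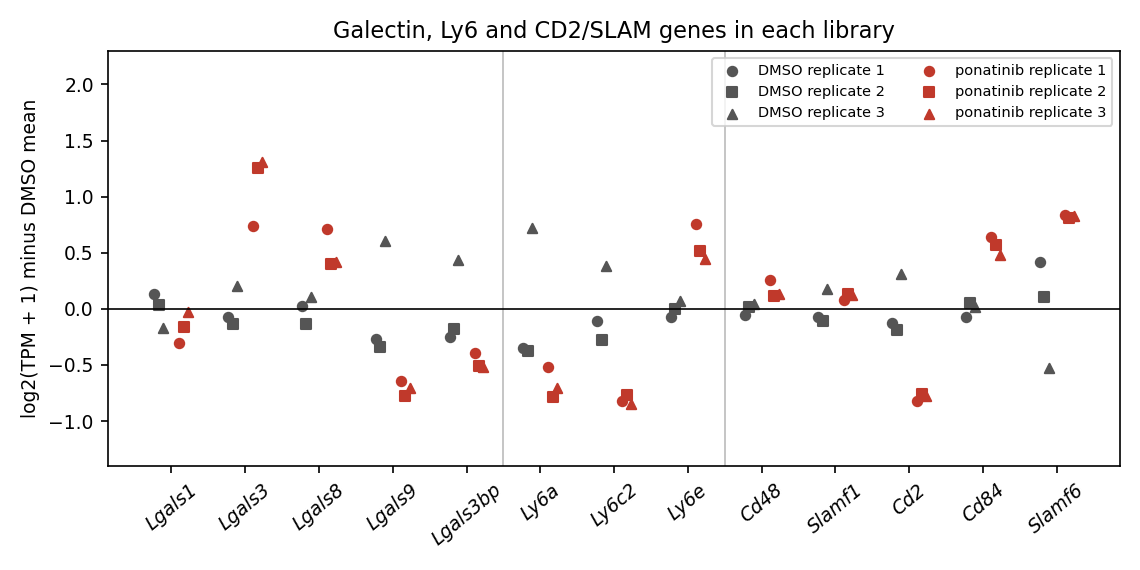
Level of members and related genes in each library as log2(TPM + 1) minus the DMSO mean of the gene; symbols mark replicate numbers and vertical lines separate galectins, Ly6 genes and CD2/SLAM genes. Lgals3, Lgals8, Ly6e, Cd48, Slamf1, Cd84 and Slamf6 lie above 0 in all ponatinib libraries. DMSO replicate 3 lies high for Lgals9, Lgals3bp, Ly6a, Ly6c2 and Cd2.

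Among the other galectins and galectin-related genes, 6 of 11 were tested, 2 rose and 1 fell, with a median of -0.09. Beside them, 23.9% of all tested genes were called higher and 9.54% lower. With medians of ratios 2 of the list rose and 3 fell. Lgals9, whose protein binds TIM-3, fell from 92.4, 87.3 and 170 to 70.6, 64.5 and 67.6 TPM (log2 fold change -0.71, SE 0.22, adjusted p = 0.0422). Its call was lost without any 1 of the ponatinib libraries (adjusted p of 0.0985 to 0.113), with no filter (0.0973) and with robust empirical Bayes (0.0788). Without DMSO replicate 3 the change was smaller, -0.41, and called (adjusted p = 0.00112). Lgals3bp, a secreted galectin ligand, was at 76.5 ± 21.4 and 53.5 ± 2.62 TPM and was not called (-0.47, adjusted p = 0.0574). Of the alternatives 6 called it, among them medians of ratios (-0.57, adjusted p = 0.0196) and leaving out DMSO replicate 3 (-0.26, adjusted p = 0.00886). Lgals8 rose from 5.13 ± 0.521 to 7.76 ± 1.10 TPM (adjusted p = 0.0136); the gene Heatr1 overlaps it on the opposite strand, and the labels do not say whether strand was kept. Grifin, a galectin-like gene of the lens, rose from 0.915 ± 0.262 to 4.49 ± 0.965 TPM. With a DMSO mean under 1 TPM, Grifin was tested only through its ponatinib libraries.

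Ly6A, Ly6C, CD48 and CD24 reach the surface on a glycosylphosphatidylinositol (GPI) anchor, whose synthesis genes were tested as a list. Of 30 listed genes 28 were tested, 3 rose and 0 fell, with a median of 0.02, below the 0.09 of all genes. The shares of all tested genes were 23.9% called higher and 9.54% lower. With medians of ratios 2 of the list rose and 2 fell. Pgap1 and Pgap3, which remodel the anchor after it is attached, rose from 0.752 ± 0.0740 to 3.11 ± 0.142 TPM (adjusted p = 3.92e-04) and from 3.96 ± 0.0564 to 5.61 ± 0.301 TPM (adjusted p = 0.00960). With a DMSO mean under 1 TPM, Pgap1 was tested only through its ponatinib libraries. Pigf rose from 22.6 ± 0.437 to 27.3 ± 2.24 TPM, a call lost in 6 of the alternatives, among them medians of ratios (0.16, adjusted p = 0.124); Rhoq overlaps it on the opposite strand. Pigm was at 4.94 ± 0.833 and 6.25 ± 0.0889 TPM and was not called (adjusted p = 0.0792); without DMSO replicate 3 it was (0.41, adjusted p = 0.00483).

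**Figure D4:**
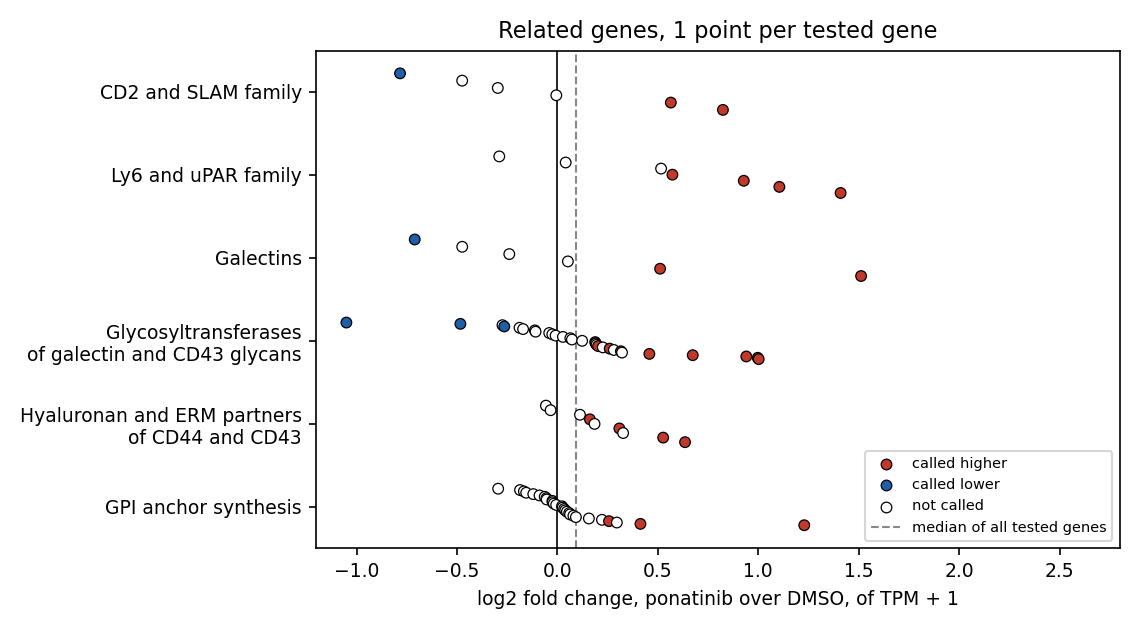
Log2 fold change (ponatinib over DMSO, of TPM + 1) of every tested gene of the 6 lists of related genes, 1 point per gene, coloured by the call; the vertical position within a list follows rank only. GPI anchor genes cluster near 0, with 3 of 28 called, and the Ly6 and uPAR family has 4 of 7 called higher. In that family Ly6g5b and Ly6d passed the minimum only through their ponatinib libraries. Among all tested genes 23.9% were called higher and 9.54% lower.

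The members did not share 1 pattern over the 6 libraries. Profiles were compared by the root mean square difference of log2 values centred on each gene. Ly6a and Ly6c2 (0.21), and Cd24a and Ly6c2 (0.22), were near each other relative to their own spread of 0.50, 0.45 and 0.53, whereas Lgals3 was 0.98 from Ly6c2 and 1.06 from Cd24a. Cd48 and Spn (0.10), Cd44 and Slamf1 (0.10) and Cd48 and Slamf1 (0.10) were the nearest of the flatter pairs. Their own spreads were 0.10 for Cd48, 0.11 for Slamf1, 0.15 for Spn and 0.16 for Cd44. The distances of these pairs were thus not small beside their own spread. Among the other gene rows that averaged 20 TPM or more, Ly6a was most like Lgals9 (0.08) and Trim12c (0.11), an interferon-induced family member; Lgals9 was at 170 and Trim12c at 39.1 TPM in DMSO replicate 3, above all other libraries. Ly6c2 was most like Gng12 and Nabp1 (0.04 and 0.05), and Cd24a like Cars, a tRNA synthetase gene, and the glycolytic gene Eno1 (0.11 each), with Eno1 at 3047, 2836 and 3442 TPM with DMSO and 1415, 1589 and 1626 TPM with ponatinib. Lgals3 was most like the chemokine gene Ccl3 (0.16) and the redox gene Txnrd1 (0.18), at larger distances than the other members had. The own spread of Lgals3, 0.59, was also the largest of the tested members, and the distances are not scaled by it. Spn was most like Mrpl33 and Gltp (0.01 and 0.02), Cd48 like Rpl37a and Pts (0.02 and 0.03), Slamf1 like Ranbp2 and Thy1 (0.02 each), Cd44 like Slc35b1 and Cdk7 (0.04 and 0.05), and Lgals1 like Ndufaf6 and Tmem97 (0.04 and 0.06). These likenesses rest on 6 libraries in 2 groups and carry no test.

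**Figure D5:**
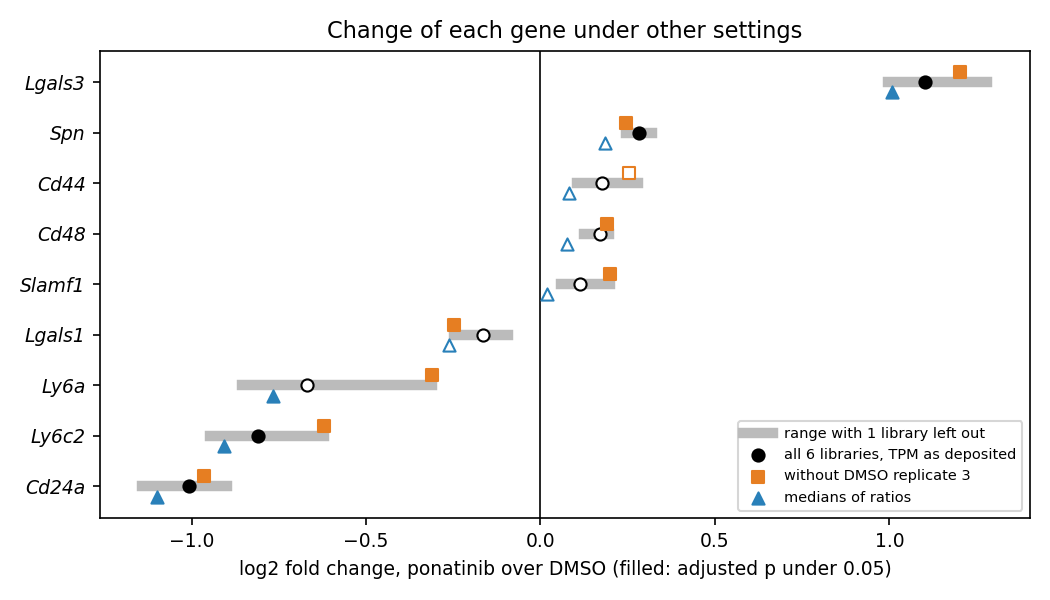
Log2 fold change of the 9 tested genes with all libraries, with DMSO replicate 3 left out, and scaled by medians of ratios; filled symbols have an adjusted p under 0.05 and grey bars span the values with 1 library left out. No gene crosses 0, and Ly6a has the widest grey bar, from -0.86 to -0.31.

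The labelled cell type was checked by markers. All 10 genes listed for CD8 T cells were above 1 TPM in the mean. They summed to 3730 to 3819 TPM with DMSO and 4446 to 4799 TPM with ponatinib. Only Cd8a and Cd8b1 of the list tell CD8 from other T cells, since the rest are general T cell genes. With DMSO and ponatinib Cd8a was at 227 to 245 and 331 to 371 TPM, and Cd8b1 at 303 to 347 and 413 to 517 TPM. Of the 4 CD4 T cell markers, Cd4 was at 0.713 to 2.84 TPM with DMSO and 4.23 to 5.32 TPM with ponatinib, Foxp3 at 0.778 to 1.37 and 6.78 to 10.4 TPM, and Cd40lg at 0.808 to 1.28 and 3.71 to 4.56 TPM. Zbtb7b went the other way, from 1.46 to 4.64 TPM with DMSO to 0.978 to 1.10 TPM with ponatinib. The 4 summed to 5.21 to 9.53 and 16.4 to 19.7 TPM. NK cell markers other than Eomes, which CD8 T cells also express, stayed under 1 TPM, and the list summed to 18.6 to 30.9 TPM with DMSO and 34.1 to 43.3 TPM with ponatinib. The part of such cells in the values of the members was not tested.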

How the data were processed

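The authors deposited 1 table of 43072 rows, of which 22095 carry gene and 20977 transcript identifiers, with 1 column for each of the 6 libraries. Its values were read as TPM, because each deposited column sums to 1000000; TPM keep no depth, so read numbers are unknown and precision rests on the spread between libraries (median SE of a log2 fold change 0.09). Per the submitters' processing notes fastp 0.19.5, Salmon 1.5.1, DESeq2 1.22.1 and GRCm38 were used, with no roles given. Per the labels' protocols, RNA came from RNeasy Plus Micro columns and libraries from the NEBNext Ultra II kit.

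Symbols and coordinates came from GENCODE mouse release 21 (GRCm38), matched without versions for 22011 gene rows; 11 rows had the same version, so the authors' annotation was another. Gene rows with a mean of at least 1 TPM were transformed to log2(TPM + 1), which understates changes of low genes, and compared with limma 3.58.1 (lmFit, eBayes with trend, two-sided) in R 4.3.3, with Benjamini-Hochberg adjustment over all 10039. The fit was tested on simulated data. Folds without "log2" are ratios of mean TPM. Intervals are 95% intervals of the moderated statistic.

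Named genes are all members, up to 4 genes of smallest p per list, and the 2 genes most like each member; others are marked. Members and lists were chosen with earlier results of these data known. The filter, pseudocount (0.1 and 5), scaling, transcript rows, robust fitting, mitochondrial genes, the replicate number as a block and leaving out each library were varied. Promoter entries from RefSeq were found for 7 of the 10 members.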

Additional observations from a re-analysis of the deposited data

How the results depend on the processing

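No member changed direction under any of the 16 alternatives. The calls of Lgals3, Cd24a and Ly6c2 held under all of them. With medians of ratios Ly6a was called (-0.77) and Spn was not (0.19), and 1477 genes were higher and 1571 lower in place of 2398 and 958; with quantile normalization 1446 were lower. A minimum of 10 TPM called Cd48 (0.17). With 1 library left out the genes higher ranged from 1345 (without ponatinib replicate 3) to 3534 (without DMSO replicate 3) and the genes lower from 626 (without ponatinib replicate 2) to 1011; without DMSO replicate 1, 1503 were higher, and without ponatinib replicate 2, 1406. The log2 fold change then ranged from -0.86 to -0.31 for Ly6a, 0.12 to 0.20 for Cd48, 0.059 to 0.20 for Slamf1 and -0.25 to -0.093 for Lgals1, and DMSO replicate 3 was the library whose omission led to a call in each. Slc35b1 reversed when transcript rows were added (-0.081) and Thy1 with quantile normalization (-0.0052), neither called. The causes were not tested. With the replicate block 2300 genes were higher and 922 lower, and no call of a member changed. Same-numbered libraries did not deviate together (correlations of -0.03, 0.06 and 0.01), so the numbers were not taken as pairs. TPM without counts limit what can be said of genes near 1 TPM, Ly6c1 among them.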
